A study of Mus musculus with 2 samples.

Results

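Low level CpGs are cytosines that carry methylation on a minority of the DNA molecules read. They were chosen by their measured level: autosomal CpG cytosines covered by 10 or more reads in each library whose pooled level, the methylated reads over all reads of both libraries, was at least 10% and under 40%. There were 113408 such cytosines among 1603296 tested, or 7.07%. They came from reduced representation bisulfite sequencing of liver, an assay that reads CpGs near the cut sites of restriction enzymes, where bisulfite converts unmethylated cytosines and leaves methylated ones. The control library came from untreated CD-1 mice, an outbred stock, aged 12 weeks and kept on standard chow, and the fasted library from CD-1 mice of 12 weeks deprived of food for 12 hr. Each group had 1 library. Whether that was 1 mouse or a pool is not said in the labels, so no spread between animals could be estimated. Whole liver holds hepatocytes and other cell types, and a level between the extremes cannot be told apart as a mixture of cells, of alleles or of molecules in 1 cell type. Coordinates are in mm10.

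In vertebrate genomes most CpGs are either fully methylated or, in CpG islands at gene starts, free of methylation. Low levels are known from the shores of islands, from distal regulatory elements bound by transcription factors, where methylation is removed locally, and from imprinted regions, where the 2 parental alleles differ. DNMT1 copies methylation to the new strand after replication, so both strands of a CpG usually carry the same state. In liver, the low methylated regions in genes for plasma proteins and metabolic enzymes are a known mark of the hepatocyte.

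The 4 promoters below are those with the most low level cytosines outside chromosomes 8 and 18, and they show how densely such CpGs can lie. Each run covers the 250 bases before an annotated start, from RefSeq on GRCm38.p6, written along the gene's own strand. Capitals mark the CpGs with at least 1 low level cytosine, and CpGs left in lower case were outside the class or untested. The promoters are those of Hymai at chr10:13090595-13090844 on the plus strand, an imprinted transcript of the Plagl1 locus, and Igf2r at chr17:12769707-12769956 on the minus strand, the imprinted receptor for insulin-like growth factor 2. The others are Rbmxl2 at chr7:107209195-107209444 on the plus strand, which encodes an RNA-binding protein of germ cells, and the predicted gene Gm40862 at chr12:23634393-23634642 on the minus strand.
Hymai: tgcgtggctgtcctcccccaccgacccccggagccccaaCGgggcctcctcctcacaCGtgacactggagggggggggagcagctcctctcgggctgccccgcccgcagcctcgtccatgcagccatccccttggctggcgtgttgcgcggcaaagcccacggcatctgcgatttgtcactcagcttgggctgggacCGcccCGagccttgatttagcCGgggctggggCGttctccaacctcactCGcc
Igf2r: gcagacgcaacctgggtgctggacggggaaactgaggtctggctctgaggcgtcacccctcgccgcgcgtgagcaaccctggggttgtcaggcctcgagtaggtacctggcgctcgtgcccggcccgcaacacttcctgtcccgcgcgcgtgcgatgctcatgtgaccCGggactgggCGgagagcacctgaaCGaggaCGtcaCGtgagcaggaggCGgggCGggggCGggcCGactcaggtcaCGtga
Rbmxl2: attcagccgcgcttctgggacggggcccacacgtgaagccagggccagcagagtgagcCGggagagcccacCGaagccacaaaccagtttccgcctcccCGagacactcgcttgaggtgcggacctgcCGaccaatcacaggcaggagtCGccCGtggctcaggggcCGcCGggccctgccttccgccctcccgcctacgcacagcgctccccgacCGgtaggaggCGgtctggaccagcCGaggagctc
Gm40862: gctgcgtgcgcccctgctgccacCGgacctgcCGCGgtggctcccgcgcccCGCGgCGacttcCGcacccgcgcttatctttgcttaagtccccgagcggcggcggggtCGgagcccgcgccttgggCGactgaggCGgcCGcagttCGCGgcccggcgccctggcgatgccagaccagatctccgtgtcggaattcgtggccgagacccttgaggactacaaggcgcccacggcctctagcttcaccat

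In the Hymai promoter, counted to 50 bases past the start, all 26 tested cytosines were in the low class, and their mean level was 30.5% in control liver and 34.3% in fasted liver. All 24 tested cytosines of the Igf2r promoter were in it too, at 27.1% and 33.1%, and single cytosines ran from 20% to 31.6% in control and from 17.6% to 40% in fasted liver. In Rbmxl2, 23 of 27 tested cytosines were members, at 18.6% and 26.6%. In Gm40862, 23 of 38 were members, at 15.7% and 21.9%. The ranges of the libraries overlapped in all 4 promoters. Their cytosines share fragments and reads, and are not independent measurements.

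A low pooled level mostly meant a low level in each library. The level was between 10% and 40% at 75.7% of the members in control liver and at 75.3% in fasted liver, and in both libraries at 53.5%. No methylated read was seen at 3.18% of them in control and 3.35% in fasted liver, and 10.6% and 8.69% stood at 40% or more. The median coverage was 17 and 19 reads, so a single cytosine's level is coarse. The 7939 cytosines just inside the lower bound, pooled at 10 to under 11%, averaged 10.9% and 10% in the control and fasted libraries, and the 7481 just outside it averaged 9.76% and 9.11%. At the upper bound, the 2081 just inside averaged 39.8% and 39% and the 3689 just outside 40.7% and 40.4%.

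Low level CpGs were sparse at gene starts and dense in the kilobases beside them. Gene end windows, from 1000 bp outside to 500 bp inside a gene's annotated start, held 41.8% of the tested cytosines and 21% of the members, or 3.55 members per 100 tested. Where a gene had no annotated strand, the end with more tested cytosines was used. Gene bodies held 53.7% of the members at 9.62 per 100 tested, and the space between genes 25.3% at 9.6 per 100. By distance from the nearest annotated start, the rate was 2.31 per 100 in the first 250 bp downstream and 2.39 in the 250 bp upstream. It was 12.5 per 100 at 1 to 2 kb upstream and 13.1 and 13.2 at 1 to 2 kb and 2 to 5 kb downstream. Beyond 100 kb it came down to 6.27 per 100 on both sides. Distances were taken on 18 autosomes, and chromosome 18 was not used for them.

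The density of CpGs went with the rate. Among cytosines with no other tested CpG within 100 bp, 9.94 per 100 were in the low class, and the rate stayed near 10 up to 3 to 4 other CpGs, where it was 9.85. With 17 or more it was 1.92 per 100. On the chromosomes the rate lay between 6.18 per 100 on chromosome 16 and 7.9 on chromosome 17.

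**Figure D1:**
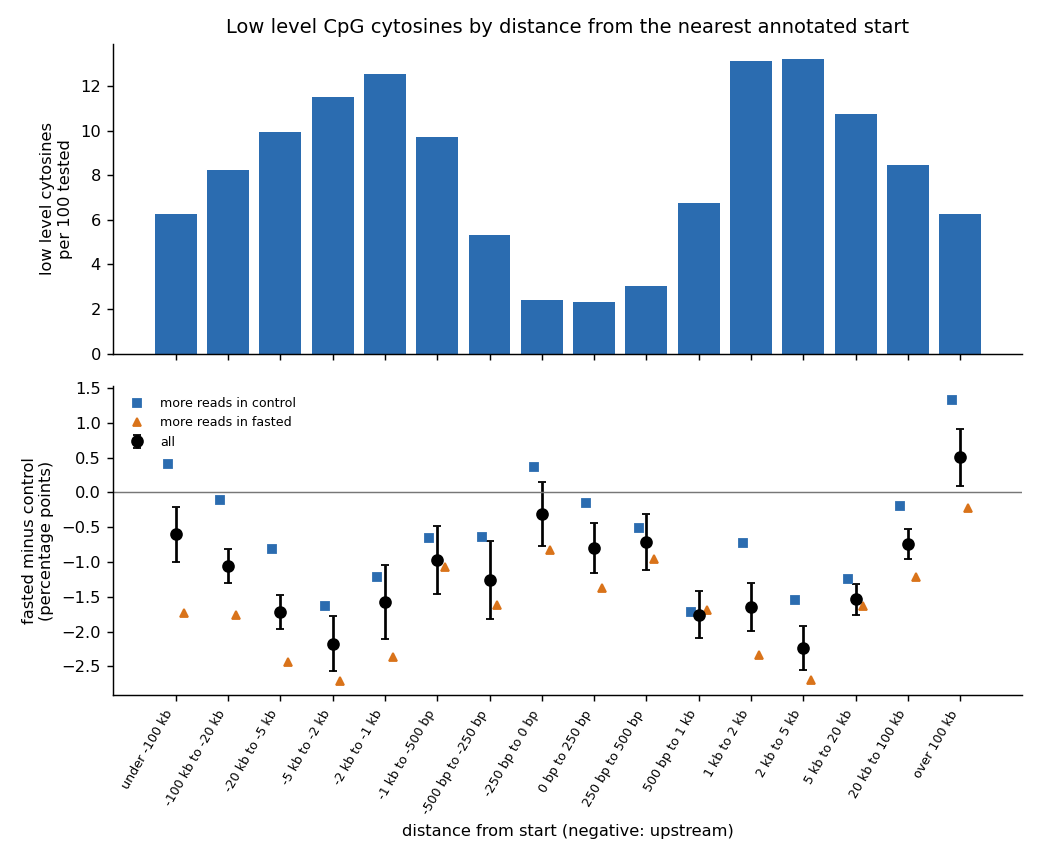
The upper panel shows low level cytosines per 100 tested, and the lower panel their mean fasted minus control difference in percentage points, by distance from the nearest annotated start (negative is upstream). Black points are all members with 95% counting intervals, and squares and triangles the members with more reads in the control or the fasted library. The rate is lowest within 250 bp of a start and highest from 1 to 5 kb downstream, and the difference is lowest from 2 to 5 kb on either side.

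In promoters, a larger share of members than of cytosines under 10% sat in restriction site motifs. The motifs searched were CCGG and TCGA, the sites of MspI and TaqαI, which read the same on both strands and do not overlap at a CpG. Of 31396 autosomal RefSeq promoters of 300 bp, 53.5% held CCGG and 22.1% held TCGA. Of the 4050 members in promoters, 16.2% sat in CCGG and 4.32% in TCGA. Among the 176033 promoter cytosines under 10%, these shares were 11.1% and 1.57%, and among the 3038 at 60% or more they were 24.1% and 6.29%. For the 985 at 40 to under 60% they were 21.1% and 7.61%. The members' share of CCGG lay between that of unmethylated and that of methylated cytosines. No other flanking sequence was compared. Whether the density of CpGs or the reading of cut sites by the assay sets these shares was not tested.

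The strand partner, the cytosine on the opposite strand of the same CpG, was tested for 56463 members and was not used to choose them. It fell in the same class for 66.5% of them (66.1 to 66.9%, exact Clopper-Pearson interval), was under 10% for 23.9%, between 40 and 60% for 8.32% and at 60% or more for 1.28%. Over all tested cytosines with a partner, 6.25% of partners were in the low class and 21.3% at 60% or more. For members pooled at 20 to under 30%, away from both bounds, 81.6% of partners were in the class. Near the lower bound, at 10 to under 20%, 39.3% of partners were under 10%, and near the upper bound, at 30 to under 40%, 29.4% were between 40 and 60%. With 30 or more reads in all 4 counts of a CpG, 69.8% of 4654 partners were in the class and 0.301% at 60% or more. CpGs methylated on a minority of molecules on 1 strand and on most molecules on the other were thus rare at this depth.

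Partners differed by position. At gene ends 33% of partners were under 10% and 0.454% at 60% or more, whereas between genes 15.9% were under 10% and 2.46% at 60% or more. The share in the low class was 61.3% at gene ends, 67.7% in gene bodies and 70.3% between genes.

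The nearest other CpG within 50 bp, with strands summed, was tested for 90529 members. It was in the low class for 51.4%, under 10% for 28.4%, between 40 and 60% for 10.5% and at 60% or more for 9.7%. Over all tested cytosines with such a neighbour, 6.3% of neighbours were in the class. At gene ends 42.2% of the members' neighbours were under 10%, in gene bodies 26.1% and between genes 18.8%, and the shares at 60% or more were 3.96%, 9.58% and 16.4%. Low levels at gene ends thus adjoined unmethylated CpGs more often than elsewhere, as did all tested cytosines there, with 92.3% of neighbours under 10%.

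The likeness faded with distance. Of CpGs 2 to 10 bp from a low level CpG, 47.6% were in the class, against 36.6% at 51 to 100 bp, 23.6% beyond 200 and up to 500 bp and 15.8% beyond 1 kb and up to 2 kb. For all tested CpGs the share lay between 3.68% and 9.41% over the same distances. Among 61261 members with a tested CpG within reach on both sides, 31.9% lay between low level CpGs, 22.8% between CpGs under 10% and 3.3% between CpGs at 60% or more. Only 0.686% lay at a border, with a CpG under 10% on one side and at 60% or more on the other. Members between unmethylated CpGs had a median pooled level of 13.3%, and 41.2% of them were at gene ends. Members between methylated CpGs had a median of 30.4%, and 7.91% were at gene ends.

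**Figure D2:**
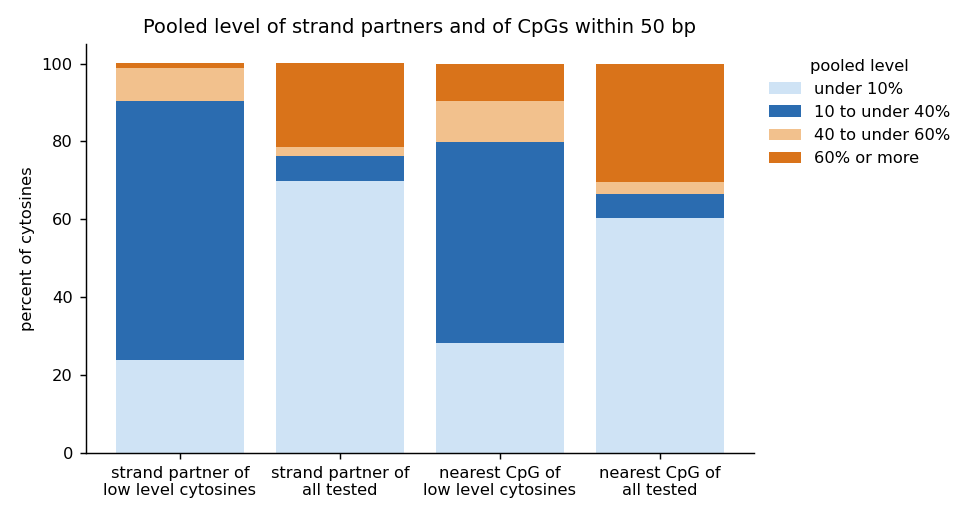
Stacked bars give the percent of strand partners and of nearest CpGs within 50 bp in each class of pooled level, for low level cytosines and for all tested cytosines. The low class takes 66.5% of the members' partners and 51.4% of their neighbours, against 6.25% and 6.3% over all tested cytosines.

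Low level CpGs formed short runs. Consecutive tested CpGs at most 100 bp apart, all in the class, made 56961 runs, and 73.8% of these were a single CpG. Runs of 5 or more numbered 1363 and held 10.9% of the 84222 low level CpGs, and 138 runs had 10 or more. The 5 longest lay in 3 loci: near Rn18s-rs5 on chromosome 17 (49, 37 and 31 CpGs), at Igf2r (43 CpGs over 343 bp) and at Plagl1 (34 CpGs over 321 bp).

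Rn18s-rs5 is a ribosomal RNA related sequence, and ribosomal RNA genes are present in the genome in many copies, with silent copies methylated. The locus, at chr17:39843014-39848710, held 642 members of 786 tested cytosines, with a median of 1602 reads in control and 1764 in fasted liver. The members averaged 16.2% in control and 19.6% in fasted liver, and 549 of 642 were higher in the fasted library. Of the 642 members, 3 passed the call rule described below, beside 0.196% called higher and 0.198% lower over all members. That rule requires a difference of at least 25 points, and the mean difference here was 3.32 points. In the longest run, of 49 CpGs over 736 bp, read counts were summed over the CpGs, so 1 read can count at several. Of 118441 such counts in the control 15% were methylated (14.8 to 15.2%, exact interval), and of 136416 in the fasted library 16.9% (16.7 to 17.1%). These intervals take the counts as independent and are too narrow. Of the 604 members with 200 or more reads in both libraries, 493 lay in this locus, and the locus, with 0.566% of the members, held 32.2% of the weight when cytosines were weighted by their smaller read count. Which and how many ribosomal copies these reads came from was not tested.

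In 33 of 11692 protein-coding gene end windows with at least 10 tested cytosines, or 0.282%, at least 80% of the tested cytosines were low level CpGs, while 8208 windows (70.2%) held none. The 10 with the most members were Igf2r, Plagl1, Zrsr1, BC029722, Noto, Ptchd3, Tescl, Vamp9, Pcdhga9 and Rnf186. Of the imprinted genes listed, 4 were among the 33, namely Igf2r, Plagl1, Zrsr1 and Mkrn3. The remaining windows included genes known for liver functions, chosen here after their values were seen: A1cf, a factor of apolipoprotein B mRNA editing, Agxt, which detoxifies glyoxylate, and Fgb, the fibrinogen beta chain. A1cf had all 20 tested cytosines in the class, Agxt 11 of 13 and Fgb 10 of 11.

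Igf2r had 80 of 83 tested cytosines in the class, with a mean of 23.5% in control and 25.8% in fasted liver, and 44 members were higher and 36 lower in the fasted library. Plagl1, an imprinted zinc finger factor, had 63 of 65, at 34.8% and 31%. Both libraries covered much the same range at these starts. Zrsr1, an imprinted gene for a splicing factor, had 29 of 32, and its mean was 19.1% in control and 34.3% in fasted liver. Of its members 21 were higher and 8 lower in fasted liver, and these cytosines share few reads, with as few as 10 at some, so the difference was not shown to exceed counting error. BC029722 had 25 of 26 cytosines in the class through a contrast of the libraries, at 41.2% in control and 0.735% in fasted liver. All 25 were lower in the fasted library, and over all 26 tested cytosines the means were 40.4% and 0.707%. Tescl, a tescalcin-like gene, had 23 of 26, at 49.3% and 7.11%. For BC029722 and Tescl the pooled level was low although neither library stood in the class on average. Of the 33 windows, 17 differed by less than 5 points and 4 by 10 points or more, of which 3 were lower in the fasted library.

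**Figure D3:**
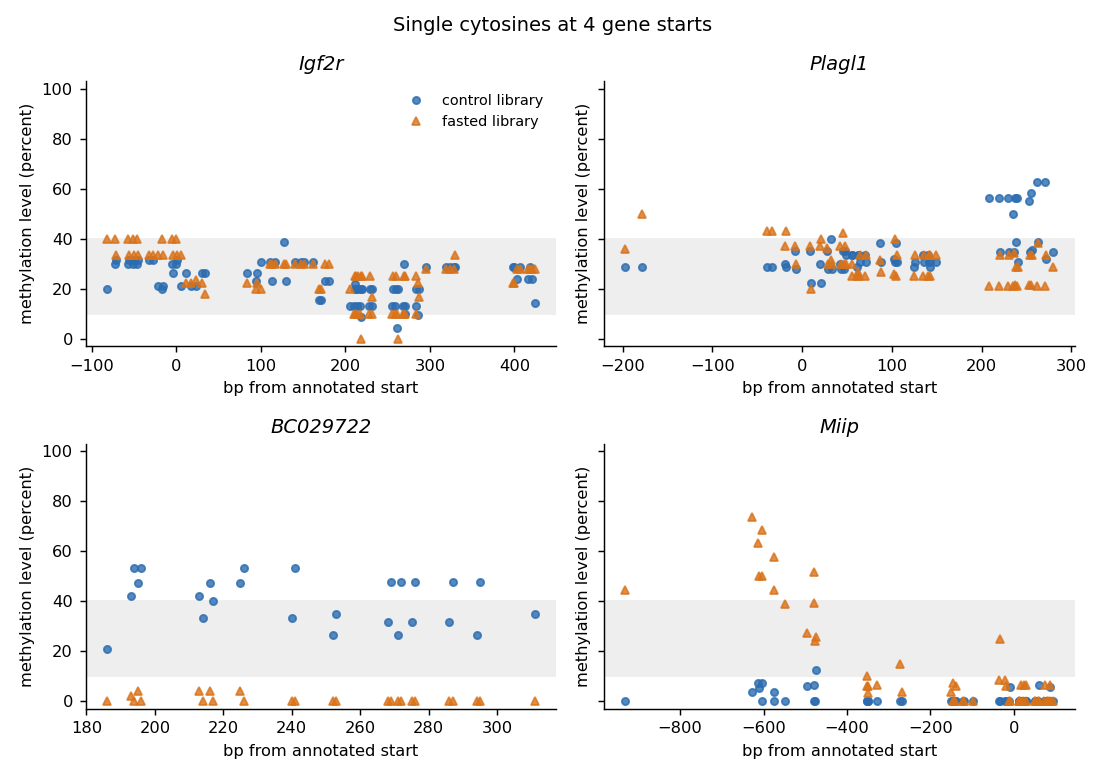
Each point is a tested cytosine in 1 library, by distance from the annotated start in bp and by methylation level in percent, with the class of 10 to 40% in grey. At Igf2r both libraries lie largely inside the grey band and at Plagl1 inside or above it, at BC029722 the control points lie between 20 and 55% and the fasted points near 0, and at Miip the fasted points farthest upstream of the start lie above 20%.

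Over all members the mean level was 22.8% in control and 21.6% in fasted liver, which is -1.22 percentage points (counting interval -1.30 to -1.14), and 52177 members were higher and 59266 lower in the fasted library. The cytosines are of 2 libraries, so the difference compares those and not the conditions. All 19 autosomes had a lower mean in the fasted library, from -0.180 points on chromosome 13 to -1.99 on chromosome 5. The differences scattered with an SD of 16.7 points over members, where counting reads alone gives 13.8. The read depth moved with this result. Members with more reads in the control library differed by -0.583 points, those with more reads in the fasted library by -1.71 and the 8175 with equal reads by -1.09. The pooled level weights the deeper library, so the rule itself sets part of this split, here and in the splits by deeper library below. The mean turned to 0.247 with at least 50 reads in both libraries and to 0.375 when weighted by reads. Without the ribosomal locus these were -0.809 and -0.925.

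The 56463 strand partners averaged 21.1% and 19.9%, or -1.20 points, but 66.5% of them are themselves members, whose mean is the members' own. Partners outside the class differed by -0.369 points where they were under 10% (13499 partners), by -1.75 between 40 and 60% (4697) and by -0.458 at 60% or more (721). Over all partners the value turned to 1.86 with at least 50 reads. Over 27277 CpGs low on both strands summed, the minus strand differed from the plus strand by -0.0582 points in control and -0.0133 in fasted liver. The fasted library differed from the control library over these CpGs by -1.34 on the plus and -1.30 on the minus strand.

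By position, the difference was -0.882 points at gene ends (20.3 and 19.5% in the control and fasted libraries), -1.62 in gene bodies (23.1 and 21.4%) and -0.651 between genes (24.4 and 23.7%). The counting intervals were -1.73 to -1.51 for bodies, -1.05 to -0.718 for ends and -0.818 to -0.485 for the space between genes. They take neighbouring cytosines of 2 libraries as independent, so they are too narrow to set the positions apart. With equal reads the values were -1.42 in bodies, -1.10 at ends and -0.399 between genes. Windows of 2000 bp on each side gave -1.22 at ends. Gene bodies were lower in the fasted library on 19 of 19 autosomes, and below the space between genes on 17 of 19. The space between genes was lower on 13 of 19. There the sign turned with the deeper library, with 0.0814 points where the control and -1.23 where the fasted library had more reads. With at least 50 reads the sign turned at gene ends (0.527, or 0.115 without the ribosomal locus) and between genes (1.44, or 0.090), and not in bodies (-0.816, or -1.87). Weighted by reads it turned at gene ends (0.576) and between genes (1.22), and without the ribosomal locus these were -0.817 and -0.411. By distance from a start, the difference was -0.315 points in the 250 bp upstream and -0.793 in the 250 bp downstream. It reached -2.17 at 2 to 5 kb upstream and -2.23 at 2 to 5 kb downstream. Beyond 100 kb it was -0.604 upstream and 0.503 downstream.

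The surroundings of a member went with its difference. Members between low level CpGs differed by -1.48 points, those between CpGs under 10% by -1.04, and the 2024 members between CpGs at 60% or more by 1.55. That last value was 3.49 where the control library had more reads and -0.265 where the fasted library had. Members with 17 or more other CpGs within 100 bp, 4525 in number, differed by 0.0117 points, with a counting interval from -0.327 to 0.350. The ribosomal locus, whose 642 members averaged 3.32 points higher in the fasted library, was not left out when these were counted.

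By pooled level, the difference was lowest at 20 to under 25%, with -1.49 points. Outside the class it was -0.377 at 5 to under 10%, -0.423 at 40 to under 50%, 0.383 at 50 to under 60% and 0.897 at 70 to under 80%. The lower fasted levels in the low class thus stood beside higher fasted levels at methylated cytosines.

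**Figure D4:**
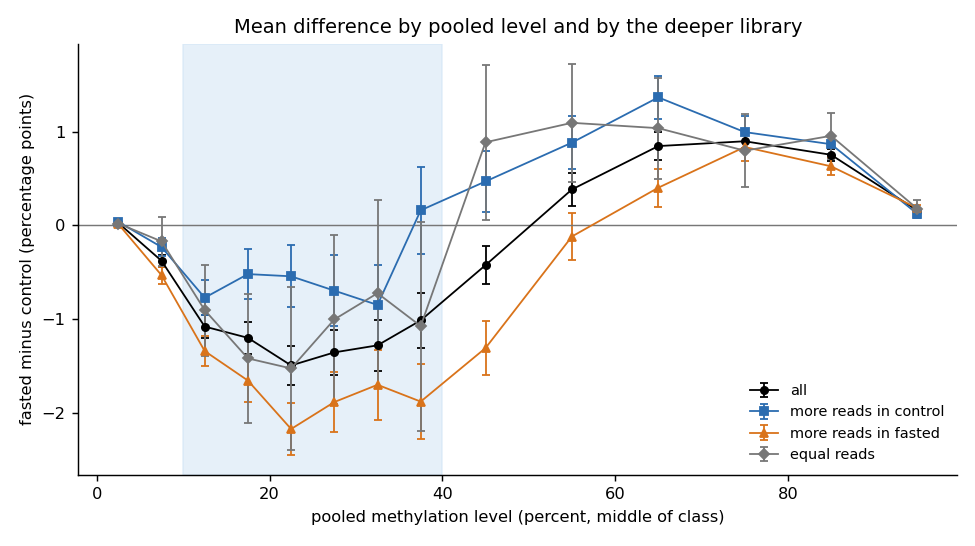
The mean fasted minus control difference, in percentage points with 95% counting intervals, is plotted by class of pooled level in percent, for all tested cytosines and by which library had more reads at the cytosine. The shaded classes are the low level CpGs, whose lowest mean of all reads is -1.49 points at 20 to under 25%, and the lines for the deeper library lie on either side of the line for all.

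Members and the CpGs beside them, whatever the level of those, moved together in part. Over cytosines, the difference of a member and that of its nearest CpG had a Pearson r of 0.354 within 10 bp (46064 pairs), 0.304 at 11 to 50 bp and 0.118 at 51 to 500 bp. With the strand partner r was 0.246. These pairs share a library and, when close, the same reads. The direction was the same in 61.8% of pairs within 10 bp and in 54.8% of strand pairs.

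Single cytosines were called different between the libraries at an adjusted p under 0.05 (Fisher's exact test on reads, Benjamini-Hochberg over all tested cytosines) and a difference of at least 25 points. Over all tested cytosines 0.0448% were called higher and 0.0372% lower after fasting. Among members 222 (0.196%) were called higher and 225 (0.198%) lower, and 8406 had an unadjusted p under 0.05. Part of the reads were counted in pairs, and with every read count halved 9 and 6 calls were left. Cytosines with a pooled level near 0 can hardly differ by 25 points, and 1 of the 853853 under 10% was called, so the members' share is partly set by the rule. In the class of 40 to under 60% the shares were 0.458% and 0.359%. Where the control library had more reads, 139 members were called higher and 43 lower, and where the fasted library had more, 70 and 173. With equal reads there were 13 and 9. The pooled level weights the deeper library, so the class admits a large difference more readily where the deeper library is the less methylated. The split by read depth is thus partly set by the rule. As a measure of error, the same test between the strands of a CpG within a library called 64 of 27277 low level CpGs in control and 60 in fasted liver, where 0.0617% and 0.0535% of all 452020 CpGs tested on both strands were called. Between the libraries it called 145 of these low level CpGs on the plus and 126 on the minus strand, with 0.0869% and 0.0843% over all 452020.

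Most called members had no methylated read in 1 of the libraries. Of the 222 called higher, 179 had no methylated read in the control library, and the medians were 0% in control and 63.2% in fasted liver. Of the 225 called lower, 181 had none in the fasted library, with medians of 61.3% and 0%. The median smaller read count was 21 for those called higher and 22 for those called lower. At such counts, the upper bound on the pooled level and the call rule together favour members near 0% in 1 library. These shares and medians are thus largely set by the rules. Of the called members, 26 higher and 37 lower lay at gene ends, 94 and 108 in gene bodies and 102 and 80 between genes. These positions held 21%, 53.7% and 25.3% of all members, so calls were most frequent per member between genes. The strand partner was tested for 133 of those called higher and moved the same way in 122. For those called lower it did so in 121 of 132.

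The largest differences were full switches, from no methylated read to full methylation at 13 members and the reverse at 9. The 3 increases with the smallest p lay 7105 bp from Kif27, a kinesin gene, at position 58371850 of chromosome 13 (0 of 38 reads against 18 of 18), inside A530065N20Rik on the same chromosome at 60083450 (0 of 39 against 15 of 15) and 43666 bp from Gm29726 on chromosome 1 at 195240806 (0 of 30 against 18 of 18). The strand partner near Kif27 also went from 0% to 100%. The 3 decreases with the smallest p lay inside Slc4a7, a bicarbonate transporter gene, on chromosome 14 at 14787454 (16 of 16 against 0 of 26), 28111 bp from Rpl19-ps4 on chromosome 14 at 13749628 (15 of 15 against 0 of 26), and 133332 bp from Gm5714 on chromosome 5 at 6615562 (13 of 13 against 0 of 25). None of these 6 was in the low class in either library, and at all 6 the library without methylated reads was the deeper. Both facts follow from the selection and are not findings. A full switch enters the class by its pooled level only where the library without methylated reads is the deeper.

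Some gene ends differed over many members. Among protein-coding gene ends with at least 10 members, 343 in number, 21 were higher and 26 lower by 10 points or more and 194 within 5 points, with a median difference of -0.991. Where few of a window's cytosines are members, those that are members are the ones methylated in at least 1 library, so the mean over all tested cytosines stands beside theirs. The lowest were Tescl and BC029722, with 7.11% and 0.735% in the fasted library as above. Oscp1 followed with 12 members of 85 tested, at 29.6% in control and 3.43% in fasted liver, where the whole window stood at 5.78% and 1.77%. Slc25a4, the mitochondrial exchanger of ADP and ATP, had 25 of 82 at 25% and 0.696%, with the window at 9.84% and 0.431%. In 2200002D01Rik 16 of 35 stood at 27.2% and 4.55%, with the window at 17.6% and 3.59%. The highest were Miip and Fv1, whose windows hold the same 15 members of 54 tested, at 3.53% in control and 45.6% in fasted liver, with the window at 1.31% and 15%. Gpi1, the glycolytic enzyme that converts glucose 6-phosphate, had 10 of 34 at 12.9% and 45.1%, with the window at 7.85% and 23.2%. Rsph3b, a radial spoke protein of cilia, had 23 of 39 at 11.4% and 33.6%, with the window at 9.82% and 28.2%. Sycp2l, a synaptonemal complex protein, had 14 of 20 at 16.1% and 37.6%, with the window at 24.7% and 45.05%. A run of 18 low level CpGs, 1197 bp from Tob2, was chosen after its values were seen. Summed over its CpGs, which share reads, 0 of 448 read counts were methylated in the control and 44.5% of 461 in the fasted library. The exact interval for the control, up to 0.82%, takes these counts as independent and is too narrow.

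In the gene bodies with the most members, the largest counts belonged to overlapping transcripts of the protocadherin cluster on chromosome 18, cell adhesion genes of neurons. Gm37013 held 315 members of 1199 tested (26.3%), and Gm38666, Gm38667, Pcdhga1 and Pcdhga2 share most of these cytosines. The members of Gm37013 averaged 26.1% in control and 22.4% in fasted liver. Outside that cluster, and chosen after the values were seen, the most members lay in Gnas, an imprinted locus for a signalling G protein (199 of 334, 31.9% and 26.7%), Gse1 (146 of 738, 22.3% and 20.7%) and Zfp316 (113 of 279, 32.4% and 22.6%). None of the members in these bodies was called. With 0.196% of all members called higher and 0.198% lower, bodies of this size would hold few calls. Of 1678 protein-coding bodies with at least 10 members, 1047 were lower and 631 higher in the fasted library, with a median of -1.63 points.

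The gene lists differed in how much of their tested sequence was in the low class. Over all protein-coding genes, 2.3% of the tested cytosines at gene ends and 9.89% in bodies were members, and the median body held 5.13%. Imprinted genes held 37.5% at ends and 40.4% in bodies, and 17 of 18 measured ends had a member. Their median end held 19.1% and their median body, of 22, 28.7%, so the summed shares rest on the genes with many members. In the bodies of hepatocyte transcription factors 21.3% were members, with a median of 30.4% over 13 bodies, whereas their ends held 1.63%. Fasting response genes showed the same split, with 17.1% in 11 bodies and 1.05% at 8 ends. Fed response genes held 9.56% in 13 bodies and 2.65% at 10 ends. Hepatocyte markers were measured at 2 ends, 18 of 23 cytosines, and in 3 bodies, 32 of 83. Housekeeping genes had none of 431 at 11 ends and 3 of 451 in bodies, and germline genes 1 of 205 and 4 of 174. The lists of the other liver cell types held 10% of body cytosines for stellate cells (median body 15.8%), 10.3% for endothelial cells (8.93%), 10.9% for Kupffer and myeloid cells (6.82%), 15.7% for lymphocytes (2%) and 18.6% for the bile duct (25%). Of the 121 lymphocyte body members, Runx3 held 87 and Pax5 33. At ends these lists held 13% for stellate cells (4 ends, median 18.2%), 6.35% for endothelial cells (2 ends, median 6.21%) and 6.02% for lymphocytes (4 ends, median 3.64%). The bile duct list held 21.3% (7 ends, median 0%), and no end of the Kupffer and myeloid list was measured.

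**Figure D5:**
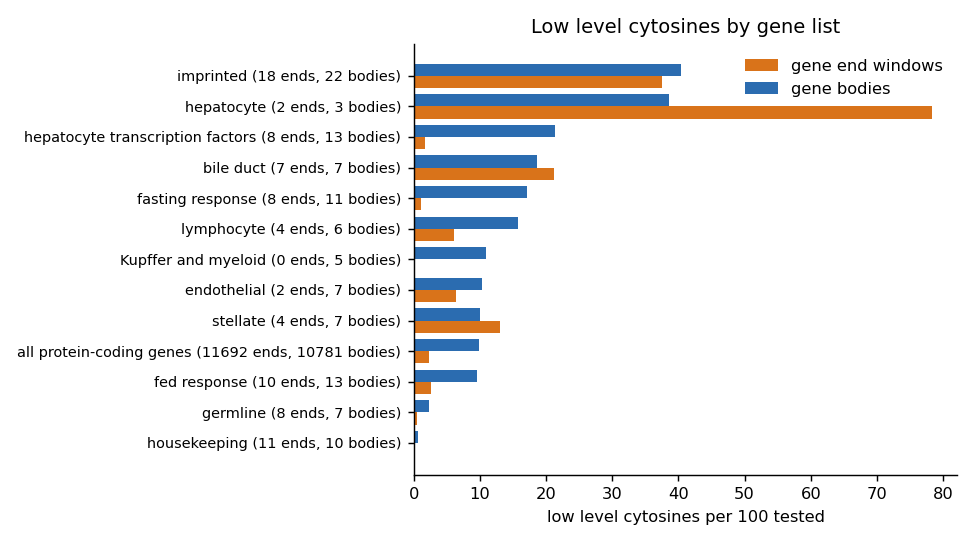
Bars give the low level cytosines per 100 tested in gene end windows and gene bodies of each list, with the numbers of windows and bodies measured in brackets. Imprinted genes and hepatocyte markers are high in both, the markers from 2 ends and 3 bodies, and the bile duct list is at 21.3 at ends and 18.6 in bodies. Hepatocyte transcription factors and fasting response genes are at 21.3 and 17.1 in bodies against 1.63 and 1.05 at ends.

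Among hepatocyte transcription factors, Nr5a2, a nuclear receptor of bile acid and cholesterol metabolism, held 53 members of 163 tested, at 22.4% in control and 19.3% in fasted liver, and 2 were called lower. Hnf4a, a master regulator of hepatocyte identity, held 32 of 75, at 20.5% and 19.6%. Among fasting response genes, Ppara, the nuclear receptor that drives fatty acid oxidation, held 34 of 205, at 24% and 17.8%, with 23 lower and 10 higher in the fasted library. Irs2, an adaptor of the insulin receptor, held 36 of 313, at 18.9% and 22%. Neither Ppara nor Irs2 had a called member. Among fed response genes, Acacb, which makes the malonyl-CoA that restrains fatty acid oxidation, held 30 of 194, at 26.7% and 20.8%, with 1 called lower. Gpam, an enzyme of triglyceride synthesis, held 24 of 133, at 19.1% and 19.8%. Over all members 0.196% were called higher and 0.198% lower, so the call counts of these genes do not set them apart. Of bodies with at least 5 members, 5 of 7 were lower in fasted liver for fasting response genes, 4 of 5 for fed response genes and 4 of 10 for hepatocyte transcription factors, beside 2002 of 3294 over all genes. The medians were -5.80, -5.90, 0.309 and -1.68 points, and those of so few bodies are imprecise.

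Hepatocyte markers with low level CpGs included Trf, transferrin, with 25 of 54 tested at 19.3% in control and 25.9% in fasted liver, and Fgb with 10 of 11 at 22.8% and 20.5%. In the imprinted list, Gnas held 257 of 499 with its end windows, at 31.6% and 27.2%, and Airn, the antisense transcript of the Igf2r locus, 108 of 130 at 24.4% and 26.8%. The lists of other cell types were led by Runx3 and Pax5 for lymphocytes (98 of 399 and 37 of 469), Krt7 and Krt18 for the bile duct (33 of 51 and 22 of 43) and Des and Ngfr for stellate cells (22 of 77 and 18 of 82). Endothelial Kdr and Egfl7 held 11 of 102 and 8 of 52, and Csf1r and Ptprc of myeloid cells 5 of 15 and 4 of 17. None of the 431 members of the 6 cell type lists was called, and with 0.196% and 0.198% of all members called, lists of this size would hold few calls. Chosen after their values were seen, Krt8 of the bile duct list had 6 members of 28 tested, at 30.7% in control and 5.32% in fasted liver. Of those 28, 19 had a pooled level under 10%. Pdgfrb of the stellate list had 7 of 44, at 11.5% and 31.7%, and 30 of the 44 were at 60% or more. These means hold for the members, picked by pooled level, and not for the whole genes. The share of each cell type in the libraries was not measured. Mov10l1 and Dazl, germline genes, held 2 of 51 and 1 of 61, and Ywhaz and Rpl13a, housekeeping genes, 3 of 179 and 2 of 23.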

How the data were processed

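The authors' deposited files list CpG cytosines of each library with a text field (methylated and total read counts, percent) and a score, 1000 times the methylated fraction. Bismark 0.14.3, bcl2fastq 1.8.4 and mm10 are named in the submitters' processing notes. For alignment settings, trimming and duplicates, the sources used here give nothing. The deposited counts were used, without normalization. The control library held 49253627 and the fasted library 51276705 reads over cytosines, and 46% and 49% of listed cytosines had 10 reads. Both methylated and total counts were even at 56.2% and 52.4% of the members with 30 to 49 reads, against 27.6% and 27% at 10 to 19 reads, so some reads were counted in pairs. Intervals and p-values cover only counting error and are narrower than they should be. PCR reads are not independent molecules.

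Genes and promoters came from RefSeq tables of GRCm38.p6. Exons, introns and CpG islands were not analysed here. Intervals are at 95%. The members, the 12 lists (166 of 171 symbols matched) and the rules were chosen with earlier results of these data known. The text names the 3 called members with the largest difference in each direction (ties by smaller p), the 10 gene ends with the most members among those at least 80% low, the 5 gene ends with the largest difference in each direction, the 5 longest runs, the 5 bodies with the most members and 2 genes of each list. Alternatives changed coverage, bounds, strands, weights and windows. The test was checked on simulated data. Python 3.11.15, numpy 2.4.6, pandas 2.3.3, scipy 1.17.1 and numba 0.67.0 were used.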

Additional observations from a re-analysis of the deposited data

How the results depend on the processing

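Differences are in percentage points, fasted minus control, in the order all members, gene bodies, between genes, gene ends and strand partners where several are given. With at least 50 reads they were 0.247, -0.816, 1.44, 0.527 and 1.86, and weighted by the smaller read count 0.375, -0.304, 1.22, 0.576 and 0.866. Without the ribosomal locus on chromosome 17, added after seeing the data, the first became -0.809, -1.87, 0.090, 0.115 and -0.143. The second became -0.925, -1.21, -0.411, -0.817 and -0.884. Where the control library had more reads they were -0.583, -1.02, 0.0814, -0.301 and -0.672, where the fasted library had more -1.71, -2.08, -1.23, -1.32 and -1.62, and with equal reads, also added after seeing the data, -1.09, -1.42, -0.399, -1.10 and -1.09. With at least 20 reads, all members gave -1.13, between genes -0.454 and partners -0.843. Bounds of 15 and 35% gave -1.32 for all members, -1.82 for bodies and -1.40 for partners. Between genes, members by the unweighted mean gave -0.461 and thinned reads -0.473, and windows of 2000 bp on each side gave -1.22 at gene ends. Called members, 222 higher and 225 lower, were 424 and 407 with strands merged, 87 and 72 with reads thinned and 9 and 6 with every read count halved. The share of members at gene ends, 21%, was 19.6% at 5 reads, 25.2% at 20, 29.7% at 50, 18.7% with bounds of 15 and 35% and 38% with windows of 2000 bp. The share of partners in the class, 66.5%, was 63.2%, 67.6% and 86.4% at 5, 20 and 50 reads and 55.6% with the narrower bounds. The share of neighbours under 10%, 28.4%, was 26.9%, 33.5% and 25.5% at these minimums, 20.04% with the narrower bounds and 26.4% within 200 bp. Where the alternative does not itself set the cause (fewer cytosines), the cause was not tested. No paired analysis was possible because each group has 1 library and the files carry no replicate numbers.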
